A study of Mus musculus with 6 samples.

Results

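The pro-apoptotic members of the BCL2 family were followed in the transcriptome of mouse ovarian granulosa cells (GCs) after cyclophosphamide (CTX). The 9 genes were Pmaip1, Bbc3, Bax, Bak1, Bcl2l11, Bid, Bad, Bik and Bmf. They were taken from the expression table by gene symbol, and all 9 were found among its 54532 genes.

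BCL2 family proteins decide at the outer mitochondrial membrane whether a cell enters apoptosis. BAX and BAK1 are the effectors, which assemble in that membrane and let cytochrome c out, after which APAF1 and the caspases dismantle the cell. BCL2, BCL2L1 and MCL1 hold the effectors back, and the BH3-only proteins (NOXA, PUMA, BIM, BID, BAD, BIK and BMF, encoded by Pmaip1, Bbc3, Bcl2l11, Bid, Bad, Bik and Bmf) release or directly trigger them through a short helix, the BH3 motif. In the ovary, apoptosis of GCs accompanies the loss of growing follicles.

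Both groups were 3-week-old female ICR mice primed with PMSG, a gonadotropin that drives follicle growth (5 IU, given 22 h before the treatment). The CTX group received 1 intraperitoneal dose of 120 mg/kg CTX, an alkylating drug that crosslinks DNA after activation in the liver, and the PBS group received the same volume of phosphate-buffered saline. GCs were taken 6 h later, and each of the 3 samples per group held the pooled GCs of 3 mice, so the spread between mice within a sample is not seen. The comparison asks which of the pro-apoptotic genes differed between CTX-exposed and control GCs at that time.

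The BH3 motif has a leucine, 3 variable residues, a small residue and an aspartate at its core, and the stretches of coding exon that carry it are shown because this helix is what makes the proteins members of 1 family. Pmaip1 was not searched for that pattern. In 1 annotated protein of each of the other 8 members (GENCODE M21, GRCm38) the search found 1 match. The 36 bases around it are written from 5′ to 3′ on the coding strand. Capitals mark the codons of the leucine and of the small residue with its aspartate.
Bbc3, chr7:16313764-16313799, plus strand: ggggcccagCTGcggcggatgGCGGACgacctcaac
Bax, chr7:45465997-45466032, minus strand: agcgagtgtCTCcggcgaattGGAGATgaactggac
Bak1, chr17:27022531-27022566, minus strand: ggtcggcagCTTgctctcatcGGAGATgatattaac
Bcl2l11, chr2:128147141-128147176, plus strand: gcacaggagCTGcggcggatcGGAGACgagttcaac
Bid, chr6:120897289-120897324, minus strand: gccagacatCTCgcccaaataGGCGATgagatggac
Bad, chr19:6950783-6950818, plus strand: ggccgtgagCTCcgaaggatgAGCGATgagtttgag
Bik, chr15:83543075-83543110, plus strand: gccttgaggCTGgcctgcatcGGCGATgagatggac
Bmf, chr2:118545100-118545135, minus strand: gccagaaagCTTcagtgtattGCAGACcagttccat
The letters are those of the reference genome, which is of another strain than the ICR mice. Bbc3 and Bcl2l11 had CTG for the leucine followed by the same cggcgg codons, and the small residue was glycine in Bax, Bak1, Bcl2l11, Bid and Bik, alanine in Bbc3 and Bmf and serine in Bad.

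Expression was given as FPKM, which is reads scaled to gene length and library depth and can be compared between genes. The FPKM values of each sample were whole multiples of the value of 1 read, which gave 16005869 to 17790353 reads on genes per PBS sample and 17727770 to 18455011 per CTX sample. In a gene of 1 kb, 3 reads corresponded to 0.164 to 0.185 FPKM. CTX replicate 2 stood apart from the other samples on the first principal component, which held 46.8% of the variance, with a score of 74.7 against -26.6 to 13.2. GC marker genes summed to 12293 to 13548 FPKM in PBS samples and 11012 to 11748 in CTX samples. Most of each sum was Inha, with means of 9606 FPKM in PBS and 8889 FPKM in CTX samples. Of the 11, 7 were lower in every CTX sample than in every PBS sample, beside 14.1% of all tested genes. Among these 7 were Foxl2 (means of 188 and 110 FPKM) and Cyp19a1 (60.5 and 28.9 FPKM). Amh (49.4 and 106 FPKM) was higher in every CTX sample, beside 15.0% of all tested genes. Amh and Amhr2 had a log2 fold change above 0. None of the 11 was called different with limma, where 0.802% of all tested genes were called higher and 0.159% lower. All markers of other cell types are given further on. Fewer cells of a type and less RNA per cell cannot be told apart in such samples.

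Pmaip1 and Bbc3 were higher in CTX-treated GCs by 28.4-fold and 7.47-fold, and they were the only members past the threshold of an adjusted p under 0.05 with a change of over 2-fold. Bax was 1.76-fold higher with an adjusted p of 0.021, so it met the p but not the fold. The other effector, Bak1, had 20.9 FPKM in PBS and 20.2 FPKM in CTX samples. Of the 8 members whose mean over the 6 samples reached 0.5 FPKM, the minimum for a test, 2 were called higher, where 0.802% of the 14463 tested genes were, and 0 were called lower, where 0.159% were. Without the fold threshold 3 members were higher, beside 1.40% of all tested genes, and 0 were lower, beside 0.360%. At an unadjusted p under 0.05, limma had 3 members higher and 0 lower, beside 10.5% and 9.10% of all tested genes. In voom on the rebuilt reads, 4 were higher and 1, Bmf, was lower before adjustment, beside 10.6% and 9.56% of all tested genes, and 0 were called lower. Every CTX sample was above every PBS sample for 4 members, Pmaip1, Bbc3, Bax and Bcl2l11, beside 15.0% of the tested genes, and below for 0 members, beside 14.1%. The median log2 fold change of the 8 was 0.24, and that of all tested genes was -0.01. Pmaip1 reached the minimum only through its CTX samples, and Bik did not reach it.

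**Figure D1:**
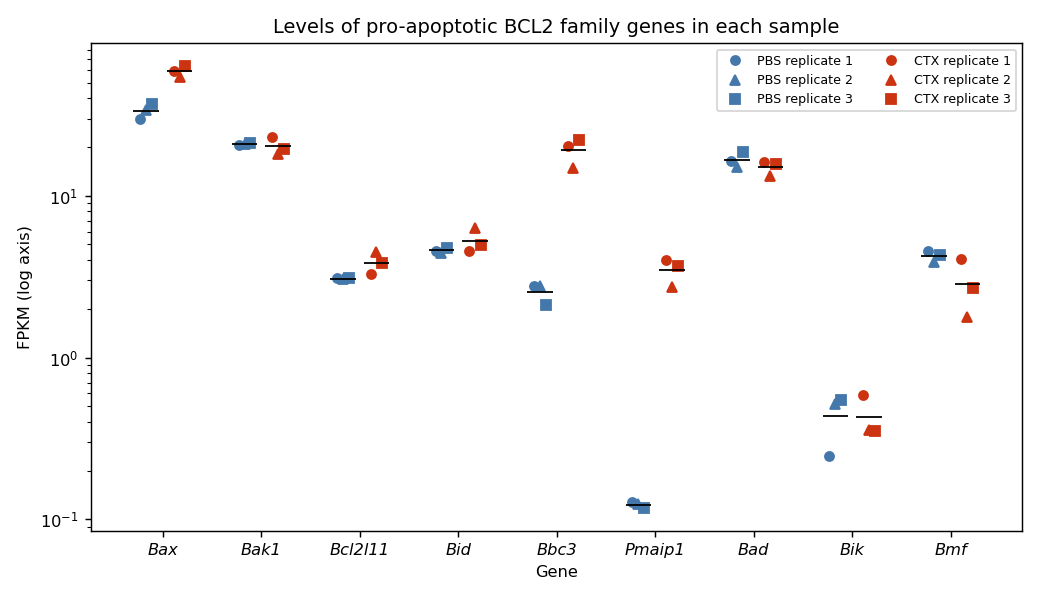
FPKM of each of the 9 pro-apoptotic genes (horizontal axis) on a log axis, with 1 point per sample, blue for PBS and red for CTX, and a bar at each group mean. The PBS and CTX points lie apart for Pmaip1, Bbc3, Bax and Bcl2l11 and overlap for the other 5 genes.

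Pmaip1 (ENSMUSG00000024521, GRCm38 chromosome 18, 66458604 to 66465550, plus strand) encodes NOXA, a BH3-only protein that binds MCL1. Its level was 0.127, 0.124 and 0.117 FPKM in PBS replicates 1, 2 and 3, and 3.98, 2.75 and 3.69 FPKM in CTX replicates 1, 2 and 3. The groups were far apart, and the lowest CTX sample was replicate 2. The mean went from 0.123 ± 0.00538 to 3.47 ± 0.646 FPKM (SD, n = 3 per group). The PBS samples held only 6, 6 and 5 reads of the gene, and the CTX samples 191, 129 and 175, so the PBS level rests on few reads. The ratio of the summed reads was 28.3, with a 95% interval of 17.5 to 49.1 that covers counting error only. The log2 fold change was 3.99 (SE 0.23, 95% interval 3.43 to 4.55) with an adjusted p of 1.2e-03 in limma. With 1 instead of 0.1 FPKM added it was 1.98, below the 2.48 of Bbc3 on that scale, and still called. Without CTX replicate 2 it was 4.14 with an adjusted p of 1.8e-03.

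Bbc3 (ENSMUSG00000002083, chromosome 7, 16308393 to 16318205, plus strand) encodes PUMA, a BH3-only protein that binds all of the survival proteins. It had 2.77, 2.77 and 2.12 FPKM in PBS replicates 1, 2 and 3, and 20.2, 14.8 and 22.3 FPKM in the CTX replicates in the same order. The lowest CTX sample was again replicate 2, and it was still above every PBS sample. The mean was 2.56 ± 0.376 FPKM in PBS and 19.1 ± 3.86 FPKM in CTX (SD, n = 3 per group), from 73 to 108 reads per PBS sample and 557 to 847 per CTX sample. The log2 fold change was 2.84 (SE 0.18, 95% interval 2.40 to 3.28), the adjusted p was 1.5e-03, and the fold change ranked 19 among those of all tested genes. Without CTX replicate 2 it was 3.01 with an adjusted p of 4.8e-04.

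**Figure D2:**
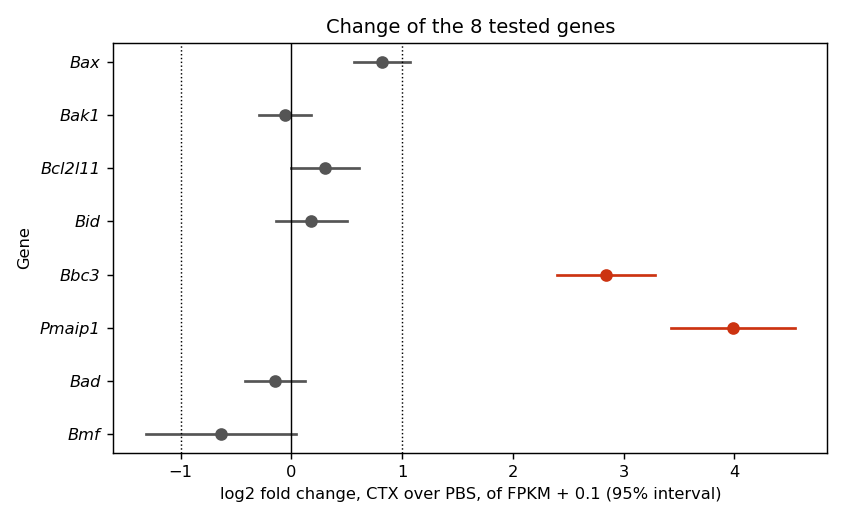
Log2 fold change of CTX over PBS, on FPKM with 0.1 added, for the 8 tested genes, with 95% intervals from limma and dotted lines at 2-fold. Red marks Pmaip1 at 3.99 and Bbc3 at 2.84, whose intervals lie wholly beyond the line, while that of Bax, 0.56 to 1.07, lies across it.

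Bax (ENSMUSG00000003873, chromosome 7, 45461697 to 45466898, minus strand) was the most abundant member in every sample. It had 29.6, 34.1 and 37.0 FPKM in PBS replicates 1, 2 and 3, and 58.7, 54.4 and 63.9 FPKM in the CTX replicates. The groups did not overlap, and the smallest gap between them was larger than the range within either group. The means were 33.6 ± 3.72 and 59.0 ± 4.72 FPKM (SD, n = 3 per group), and the log2 fold change was 0.81 (SE 0.11, 95% interval 0.56 to 1.07) with an adjusted p of 0.021. Leaving out PBS replicate 1, 2 or 3 or CTX replicate 3 raised the adjusted p to 0.084, 0.114, 0.061 and 0.089, and leaving out CTX replicate 1 or 2 gave 0.040 and 0.013. The log2 fold change stayed between 0.73 and 0.89 in these fits. On the same strand, Gm45808 shares 192 bases, or 12.2%, of the exons of Bax, and it had 0.0498 FPKM in PBS and 0 FPKM in CTX samples. Whether this overlap affected the counts of Bax was not tested.

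Bak1 (ENSMUSG00000057789, chromosome 17, 27019810 to 27029009, minus strand) had 20.7, 20.8 and 21.3 FPKM in PBS replicates 1, 2 and 3, and 23.1, 18.2 and 19.3 FPKM in the CTX replicates. The CTX samples lay on both sides of the PBS samples. Its log2 fold change was -0.06 (95% interval -0.30 to 0.18, adjusted p = 0.752). The ratio of Bax to Bak1 means was 1.60 in PBS and 2.92 in CTX samples. On the opposite strand, Ggnbp1 shares 437 bases, or 18.2%, of the exons of Bak1, and whether the counting used strand is not given in the sources used here.

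A p53 half-site, the letters that a p53 dimer is known to bind, was searched for in reference promoter windows of the members. The reason is that p53 is a known activator of Bax, Bbc3 and Pmaip1. Every window of a member was searched. Shown are the Bax and Bmf windows that held a match, and 1 of the 3 Bbc3 windows, which held none. Each window runs from 250 bases before to 50 bases after a transcription start (RefSeq, GRCm38.p6), and 7 of the 9 members had at least 1 window. Pmaip1 and Bik had none. Only exact half-sites were searched, with no departure from the consensus at any position, so a site with mismatches would be missed. Capitals mark the half-site on either strand.
Bax, chr7:45466849-45467148, minus strand: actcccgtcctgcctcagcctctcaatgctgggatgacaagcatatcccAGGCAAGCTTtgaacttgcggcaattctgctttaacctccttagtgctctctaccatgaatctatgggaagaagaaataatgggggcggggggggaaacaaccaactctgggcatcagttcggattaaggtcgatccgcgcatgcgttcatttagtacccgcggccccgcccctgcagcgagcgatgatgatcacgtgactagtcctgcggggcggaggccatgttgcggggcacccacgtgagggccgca
Bbc3, chr7:16309333-16309632, plus strand: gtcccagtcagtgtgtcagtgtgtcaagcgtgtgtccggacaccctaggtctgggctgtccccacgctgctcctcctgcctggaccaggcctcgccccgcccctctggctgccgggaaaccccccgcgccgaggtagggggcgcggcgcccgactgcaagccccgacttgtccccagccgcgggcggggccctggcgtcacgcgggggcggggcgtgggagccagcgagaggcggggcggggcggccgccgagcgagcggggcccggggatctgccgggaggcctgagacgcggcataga
Bmf, chr2:118544538-118544837, minus strand: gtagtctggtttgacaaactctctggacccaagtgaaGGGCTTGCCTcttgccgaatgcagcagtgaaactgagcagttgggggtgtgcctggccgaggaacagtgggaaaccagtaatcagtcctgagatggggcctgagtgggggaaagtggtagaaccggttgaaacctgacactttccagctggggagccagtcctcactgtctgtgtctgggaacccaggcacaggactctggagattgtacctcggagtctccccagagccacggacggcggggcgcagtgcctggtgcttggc
Counted from the start, the first base of the half-site was at -201 in Bax and at -213 in the Bmf window shown, and the 3 Bbc3 windows held no exact match, which leaves sites with mismatches there unexamined. It occurred in 8.36% of 32851 promoter windows. The FOXO core TGTTTAC, found in 3.65% of windows on either strand, was at -167 in 1 Bbc3 window and at -227 in 1 Bcl2l11 window. The E2F core TTTCGCG (0.849% of windows) and the AP-1 core TGAGTCA (5.20%) were in no window of a member. These are matches of letters in a short reference window and no measure of binding. Of the 2 members with a half-site in a window, Bax had the log2 fold change of 0.81 and Bmf that of -0.64.

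Bcl2l11 (ENSMUSG00000027381, chromosome 2, 128126038 to 128162547, plus strand) encodes BIM, a BH3-only protein that binds the effectors and all of the survival proteins. It had 3.12, 3.04 and 3.08 FPKM in PBS replicates 1, 2 and 3, and 3.27, 4.46 and 3.84 FPKM in the CTX replicates. Every CTX sample was above every PBS sample, and the coefficient of variation was 1.31% in PBS and 15.5% in CTX. The log2 fold change was 0.31 (95% interval -0.00431 to 0.61, adjusted p = 0.259). Without CTX replicate 2, the highest sample, it was 0.20 with an adjusted p of 0.365.

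Bid (ENSMUSG00000004446, chromosome 6, 120891930 to 120916853, minus strand) encodes the BH3 protein that caspase 8 cleaves. It had 4.57, 4.46 and 4.78 FPKM in PBS replicates 1, 2 and 3, and 4.57, 6.33 and 4.94 FPKM in the CTX replicates. CTX replicate 2 was again the highest, and replicate 1 was within the PBS range. The log2 fold change of 0.18 (95% interval -0.14 to 0.50, adjusted p = 0.465) became 0.05 (adjusted p = 0.810) without CTX replicate 2. Bid shares 628 bases, or 17.7%, of its exons with Bcl2l13 on the other strand, which had 13.3 FPKM in PBS and 12.9 FPKM in CTX samples.

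Bmf (ENSMUSG00000040093, chromosome 2, 118528757 to 118549687, minus strand) encodes a BH3-only protein that is held at the cytoskeleton through a dynein light chain. It had 4.54, 3.88 and 4.30 FPKM in PBS replicates 1, 2 and 3, and 4.05, 1.77 and 2.68 FPKM in the CTX replicates. CTX replicates 2 and 3 were below every PBS sample and replicate 1 was among them. The means were 4.24 ± 0.332 and 2.83 ± 1.15 FPKM (SD, n = 3 per group), and the coefficient of variation in CTX, 40.6%, was the highest of the 9 genes there. The log2 fold change was -0.64 (95% interval -1.31 to 0.04) and did not pass the test (adjusted p = 0.273). Without CTX replicate 2 it was -0.35 with an adjusted p of 0.348, and without CTX replicate 1 it was -0.93 with an adjusted p of 0.067.

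Bad (ENSMUSG00000024959, chromosome 19, 6941861 to 6951898, plus strand) encodes a BH3-only protein that is inactive while kinases such as AKT keep it phosphorylated. It had 16.3, 15.0 and 18.6 FPKM in PBS replicates 1, 2 and 3, and 16.1, 13.3 and 15.7 FPKM in the CTX replicates. The groups overlapped, and the log2 fold change was -0.15 (95% interval -0.42 to 0.12, adjusted p = 0.480). Gpr137 on the other strand covers 524 bases, or 20.5%, of its exons, with 9.96 FPKM in PBS and 8.36 FPKM in CTX samples. That share is of 2558 exon bases in GENCODE M21, whereas the FPKM values of Bad used a length of 2007 bases. How much of the overlap lay in the counted exons is not known.

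Bik (ENSMUSG00000016758, chromosome 15, 83526862 to 83544634, plus strand) encodes a BH3-only protein of the endoplasmic reticulum. It had 0.247, 0.514 and 0.543 FPKM in PBS replicates 1, 2 and 3, and 0.590, 0.354 and 0.351 FPKM in the CTX replicates. These values came from 7 to 17 reads per sample, the groups overlapped, and the ratio of summed reads was 1.00 with a 95% counting interval of 0.615 to 1.63. At this depth a change within that interval could not be told from counting error. The spread between samples comes on top, with a coefficient of variation of 37.6% in PBS and 31.7% in CTX samples.

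**Figure D3:**
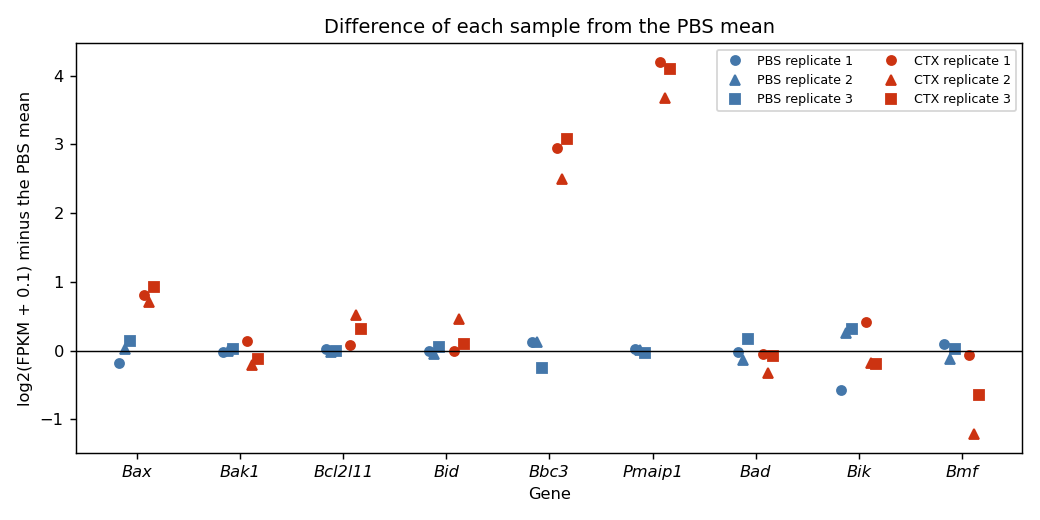
Difference of each sample's log2(FPKM + 0.1) from the PBS mean for the 9 genes, with 1 point per sample. Pmaip1 lies 3.68 to 4.20 and Bbc3 2.50 to 3.08 above the PBS mean in the CTX samples, and CTX replicate 2 (triangles) is the lowest CTX sample for 6 genes and the highest for Bcl2l11 and Bid.

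CTX replicate 2 was not uniformly low or high over the members. It was the lowest CTX sample for Pmaip1, Bbc3, Bax, Bak1, Bad and Bmf and the highest for Bcl2l11 and Bid. The calls of Pmaip1 and Bbc3 held without it, as given above.

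The levels of the 9 genes summed to 82.0, 84.7 and 91.9 FPKM in PBS replicates 1, 2 and 3, and to 134.6, 116.3 and 136.6 FPKM in the CTX replicates. The sums were 86.2 ± 5.12 and 129 ± 11.2 FPKM (SD, n = 3 per group), and they did not overlap. Without Bax they were 52.6 ± 2.16 and 70.2 ± 7.34 FPKM. Bax made up 36.1 to 40.3% of the sum in PBS and 43.6 to 46.8% in CTX samples. The share of Bbc3 went from between 2.31 and 3.38% to between 12.7 and 16.3%, and that of Pmaip1 from at most 0.155% to between 2.36 and 2.96%. Bak1 made up 23.2 to 25.3% in PBS and 14.2 to 17.2% in CTX samples, and Bad 17.7 to 20.2% and 11.4 to 11.9%.

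**Figure D4:**
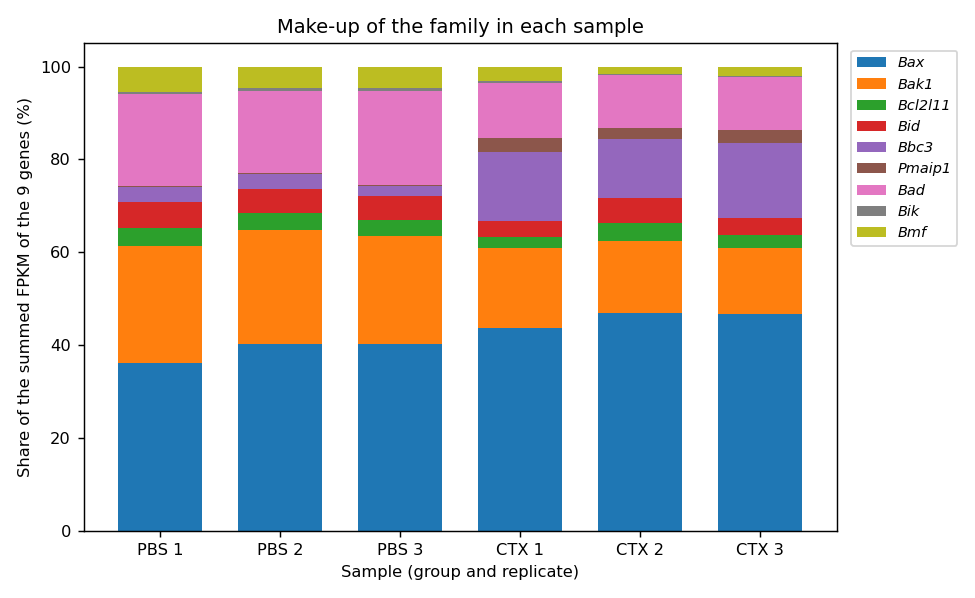
Share of each gene in the summed FPKM of the 9 genes, in percent, with 1 stacked bar per sample. Bax is the largest share in all 6 samples, and that of Bbc3 is 2.31 to 3.38% in the PBS bars and 12.7 to 16.3% in the CTX bars.

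In order of their mean FPKM, the PBS samples had Bax first, then Bak1, Bad, Bid, Bmf, Bcl2l11, Bbc3, Bik and Pmaip1. The sample values of neighbours in that order overlapped only for Bid and Bmf. In the CTX samples the order was Bax, Bak1, Bbc3, Bad, Bid, Bcl2l11, Pmaip1, Bmf and Bik. There the values of Bak1 and Bbc3 overlapped, as did those of Bbc3 and Bad, of Bcl2l11 and Pmaip1 and of Pmaip1 and Bmf. Bbc3 was thus seventh of 9 in PBS samples and between Bak1 and Bad in CTX samples.

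The survival genes, whose proteins the BH3-only proteins bind, had 5 of 8 tested. Of the 5, 0 were called by limma or voom, beside 0.802% of all tested genes called higher and 0.159% lower in limma. In both, 1 was higher and 0 lower at an unadjusted p under 0.05, beside 10.5% and 9.10% of all tested genes in limma. The 1 was Mcl1, the partner of NOXA, at 56.4, 54.2 and 55.4 FPKM in PBS and 77.7, 84.1 and 89.4 FPKM in CTX replicates. Its log2 fold change of 0.59 had an adjusted p of 0.017, and this exceeded 0.05 without any 1 of the PBS samples or CTX replicate 3, at 0.075 to 0.114. Bcl2l1, which encodes BCL-XL, had 15.2, 14.9 and 18.1 FPKM in PBS and 17.6, 5.64 and 13.6 FPKM in CTX replicates. Its low value in CTX replicate 2 set the log2 fold change of -0.53 (adjusted p = 0.477), which was -0.05 without that sample. Bcl2 was at 0.521 and 0.644 FPKM (log2 fold change 0.26, adjusted p = 0.581) in PBS and CTX samples, and Bcl2l2 at 12.7 to 13.4 FPKM in PBS and 11.2 to 12.5 FPKM in CTX samples (-0.11, adjusted p = 0.404).

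The other pro-apoptotic genes of the BCL2 type, Bok, Hrk, Bcl2l14, Bnip3, Bnip3l and Moap1, had 3 tested. Of the 3, 0 were called by limma or voom, beside 0.802% of all tested genes called higher and 0.159% lower in limma. In both, 1, Bnip3, was lower at an unadjusted p under 0.05, beside 9.10% of all tested genes in limma and 9.56% in voom. Bok, an effector-like gene, was higher than Bax, at 66.8 FPKM in PBS and 75.2 FPKM in CTX samples (log2 fold change 0.15, adjusted p = 0.571). Its highest sample was CTX replicate 2 at 92.1 FPKM, and without it the log2 fold change was -0.00077. Bnip3, which encodes a mitophagy receptor of the outer mitochondrial membrane, had 78.9, 71.4 and 79.5 FPKM in PBS and 61.0, 26.6 and 49.5 FPKM in CTX replicates. Its CTX samples were all below the PBS samples, and its log2 fold change of -0.82 had an adjusted p of 0.208. It was -0.48 without CTX replicate 2, with an adjusted p of 0.078. Bnip3l, a related receptor, had 39.6 and 39.1 FPKM (-0.02, adjusted p = 0.867).

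Downstream of the effectors, 17 genes of mitochondrial release and of the caspases were tested. Of the 17, 0 were called by limma or voom, beside 0.802% of all tested genes called higher and 0.159% lower in limma. At an unadjusted p under 0.05, 3 were higher and 2 lower in limma, beside 10.5% and 9.10% of all tested genes. In voom 3 were higher and 1 lower, beside 10.6% and 9.56%. Apaf1, the scaffold of the apoptosome, had 4.85 ± 0.295 FPKM in PBS and 8.85 ± 0.973 FPKM in CTX samples (SD, n = 3 per group), a log2 fold change of 0.85 with an adjusted p of 0.019 from limma. It was under 2-fold, and its adjusted p exceeded 0.05 without any 1 of the PBS samples or CTX replicate 3, at 0.089 to 0.105. The lowest log2 fold changes in the list were those of Endog, a mitochondrial nuclease (-0.31, adjusted p = 0.203), and Aifm1, which encodes apoptosis-inducing factor (-0.23, adjusted p = 0.146). The median of the list was 0.05.

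Of 13 genes for transcription factors known to act on the members and for Mdm2 and Mdm4, the inhibitors of p53, 11 were tested. Of the 11, 1 was called higher and 0 lower by limma, beside 0.802% and 0.159% of all tested genes. At an unadjusted p under 0.05, 8 were higher and 0 lower in limma, where 10.5% and 9.10% of all tested genes were, and the counts were the same in voom, which called 2 higher and 0 lower. Their median log2 fold change was 0.41. Jun, a component of AP-1, had 441.3, 440.9 and 430.6 FPKM in PBS and 936.9, 1214 and 1059 FPKM in CTX replicates, a log2 fold change of 1.28 (SE 0.12, adjusted p = 5.2e-03). Without PBS replicate 1 its adjusted p was 0.052. The 3 others with an adjusted p under 0.05 were chosen after their values were seen. They were Mdm2 (12.1 to 22.2 FPKM, 0.87, adjusted p = 0.022), Ddit3, the stress factor CHOP (7.96 to 14.1 FPKM, 0.81, adjusted p = 0.031), and Atf4, which acts upstream of it (105 to 152 FPKM, 0.53, adjusted p = 0.035). All 3 lost this in several fits without 1 sample, where their adjusted p reached 0.127, 0.164 and 0.196. Trp53, likewise chosen afterwards, encodes p53 and had 29.9, 30.5 and 29.8 FPKM in PBS and 33.7, 48.6 and 36.5 FPKM in CTX replicates (0.38, adjusted p = 0.217). Its log2 fold change was 0.22 without CTX replicate 2. Myc, a growth-promoting factor that was also chosen afterwards, had 32.8, 31.3 and 30.7 FPKM in PBS and 53.1, 100.4 and 72.6 FPKM in CTX replicates. Its groups did not overlap, its mean was 2.39-fold higher (adjusted p = 0.058, 95% interval of the log2 fold change 0.68 to 1.73), and it was called in 5 of 20 alternatives.

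The list of 21 binding partners and modifying enzymes of the proteins (dynein light chains, 14-3-3 proteins, AKT, PIM and MAP kinases, Casp8 and Pacs2) had 20 tested, with a median log2 fold change of 0.01. Of the 20, 2 were called higher and 0 lower, beside 0.802% and 0.159% of all tested genes. At an unadjusted p under 0.05, 5 were higher and 1, Mapk9, was lower in limma, beside 10.5% and 9.10% of all tested genes. The counts were the same in voom, beside 10.6% and 9.56%, and voom called 2 higher and 0 lower. Both called genes encode kinases that phosphorylate BAD. Pim1 had 5.81, 6.06 and 5.20 FPKM in PBS and 14.9, 29.0 and 22.5 FPKM in CTX replicates (log2 fold change 1.89, adjusted p = 0.019). Pim3 had 64.6, 59.5 and 65.0 FPKM in PBS and 103.8, 171.8 and 152.3 FPKM in CTX replicates (1.15, adjusted p = 0.042). Neither overlapped between groups, but both calls were lost without PBS replicate 1, 2 or 3 or CTX replicate 3, with adjusted p of 0.089 to 0.108 for Pim1 and 0.144 to 0.203 for Pim3. Without CTX replicate 2 the log2 fold change of Pim3 was 0.996, under 2-fold.

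**Figure D5:**
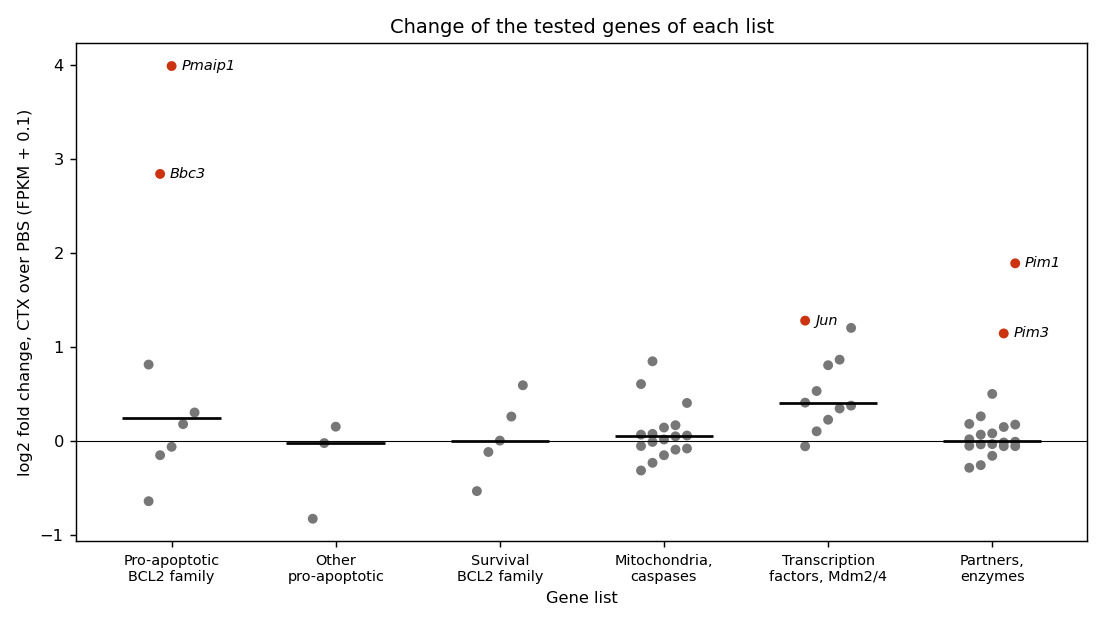
Log2 fold change of CTX over PBS, on FPKM with 0.1 added, for the tested genes of the pro-apoptotic family and of 5 related lists, with 1 point per gene, a bar at each median and red for called genes. Pmaip1 and Bbc3 lie above every other point, and the medians of the 6 lists run from -0.02 to 0.41.

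The genes whose pattern over the 6 samples was most like that of each called member were sought among 12673 genes with a mean of at least 1 FPKM, by Pearson's r of log2(FPKM + 0.1). For Pmaip1 they were Eda2r (r = 0.9997), Gne (0.9996) and Phlda3 (0.9994), and for Bbc3 they were Zmat3 (0.9993), Klf6 (0.9991) and Cep170b (0.998). An r over 0.95 was reached by 234 genes with Pmaip1 and by 218 with Bbc3. The 6 points fall into the groups of the treatment, so that any gene with a clear difference between them scores high. Eda2r went from 1.26 to 12.3 FPKM, Gne from 3.55 to 5.39 FPKM and Phlda3 from 1.61 to 21.8 FPKM. Zmat3 went from 1.90 to 5.47 FPKM, Klf6 from 23.8 to 92.3 FPKM and Cep170b from 8.64 to 19.4 FPKM.

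Markers of other ovarian cell types were present and differed between samples. The counts of called markers stand beside 0.802% of all tested genes called higher and 0.159% called lower. Of 9 immune markers, 6 were tested, all 6 had a log2 fold change above 0 and 0 were called. Their sums were 22.4 to 26.3 FPKM in PBS samples and 38.7, 71.5 and 29.2 FPKM in CTX replicates 1, 2 and 3. Lyz2 (a mean of 13.7 FPKM in PBS and 27.8 FPKM in CTX samples) and Cd68 (3.11 and 5.71 FPKM) were higher in every CTX sample than in every PBS sample, beside 15.0% of all tested genes. Ptprc, which defines leukocytes, was not tested and was at or below 0.0983 FPKM in every sample. The 8 oocyte markers, all tested with a log2 fold change above 0 and 0 called, summed to 36.3 to 77.6 FPKM in PBS and 50.5 to 89.8 FPKM in CTX samples. Of the 8 theca and stroma markers, 7 were tested and 5 of these had a log2 fold change above 0. The 8 summed to 52.6 to 56.2 FPKM in PBS and to 70.0, 29.0 and 50.8 FPKM in CTX replicates. Acta2 was the 1 called higher, beside 0.802% of all tested genes, and 0 were called lower. Cyp17a1 went the other way, with 30.8, 32.9 and 34.4 FPKM in PBS and 29.6, 1.25 and 12.4 FPKM in CTX replicates. It was lower in every CTX sample than in every PBS sample, beside 14.1% of all tested genes. Its log2 fold change of -2.04 had an adjusted p of 0.329 in limma. The endothelial markers, 2 of 6 tested with 0 above 0 and 0 called, summed to 6.59 to 7.22 FPKM in PBS and 2.61 to 5.88 FPKM in CTX samples. The red blood cell markers, 5 of 5 tested with 0 above 0 and 0 called, summed to 318.7 to 454.2 FPKM in PBS and 138.1 to 497.1 FPKM in CTX samples. CTX replicate 2 had the highest immune sum and the lowest theca and stroma, endothelial and red blood cell sums. Whether these cells contributed to the values of the 9 genes was not tested.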

How the data were processed

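RNA-seq was performed on 6 samples of mouse GCs (3 PBS, 3 CTX), grouped by their labels. The authors deposited FPKM values per gene, and the submitters' processing notes name CASAVA 1.8, fastp, HISAT2 2.0.5, featureCounts 1.5.0-p3, DESeq2 1.20.0 and mm10. Libraries were prepared with a NEBNext Ultra kit, and strand use in counting is not given in the sources used here. The authors' columns of mean signal per group, log2 fold change, p-value and adjusted p-value were deposited in the same table and were not used. FPKM multiplied by gene length was a whole multiple of the value of 1 read for 100% of values (tolerance 0.02), which gave the reads.

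The members and lists were chosen with earlier results of these data known. FPKM was compared as log2(FPKM + 0.1) with limma 3.58.1 (lmFit, eBayes with trend, R 4.3.3), over genes with a mean of at least 0.5 FPKM, with Benjamini-Hochberg adjustment over all of them. The added 0.1 makes fold changes of low genes smaller than the ratio of their FPKM. Called genes had an adjusted p under 0.05 and a change over 2-fold. With 3 against 3 samples, an exact permutation test of a single gene cannot go below p = 0.10, so none is given. The p-values measure the spread between pools of 3 mice. Named genes were the 9 members, the called genes of each list or else its 2 largest and 2 smallest changes, and the 3 genes most like each called member. A gene that the rule names in 1 list is not reported here. Intervals of read ratios are exact and cover counting error only. Python 3.11.15, pandas 2.3.3, NumPy 2.4.6, SciPy 1.17.1 and matplotlib 3.10.9 were used. Sequences came from RefSeq and GENCODE M21 tables of GRCm38. Alternatives varied the pseudocount, filter, scaling, variance model, fold threshold, replicate block and samples.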

Additional observations from a re-analysis of the deposited data

How the results depend on the processing

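Bbc3 was called higher in all 20 alternatives, with a log2 fold change of 2.48 to 3.03 and an adjusted p of at most 0.038, and Pmaip1 in all 19 in which it was tested, with 1.98 to 4.70 and at most 0.034. With a minimum mean of 5 FPKM, 1 member was called higher instead of 2, because Pmaip1 was no longer among the 4 members tested. Without each sample in turn, 2 members were called higher in all 6 fits. Bax had an adjusted p under 0.05 in 15 of 20 alternatives, among them 2 of the 6 fits without 1 sample. Without CTX replicate 2 the log2 fold change of Bak1 was 0.0126 instead of -0.06, and over the fits without 1 sample it was -0.16 to 0.01. With sample weights (arrayWeights), Bcl2l11 and Bmf reached an adjusted p of 0.0075 and 0.0059, both under 2-fold, and 366 genes were called higher and 291 lower, against 116 and 23. Without 1 sample, 57 to 143 genes were called higher and 1 to 70 lower. With a minimum of 5 FPKM, 7 were lower, and with protein-coding genes only, 15.

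Samples with the same replicate number did not deviate together (correlations of 0.056, 0.024 and 0.006, against a mean of -0.01 for different numbers). With 3 samples per group, these values cannot show whether a number stands for a shared batch. With the replicate block 2 members were called higher, Pmaip1 and Bbc3 (adjusted p = 0.034 and 0.038), Bax had an adjusted p of 0.077, 48 genes were called higher and 2 lower, and Jun (0.077), Pim1 and Pim3 were not called. Pim3 was called in 9 of 20 alternatives, Pim1 in 15 and Jun in 18. Pim3 was also lost with scaling to the 75th percentile, to total reads or by quantiles, and no scaling moved the median of all genes by over 0.1. Depth limits Bik, with 7 to 17 reads per sample, and the PBS level of Pmaip1.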
